A study of Mus musculus with 12 samples.

Results

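The inositol trisphosphate (IP3) receptor genes Itpr1, Itpr2 and Itpr3 and the ryanodine receptor genes Ryr1, Ryr2 and Ryr3 encode the channels that release calcium from the endoplasmic reticulum. They were taken by symbol from a table of 18394 genes, and all 6 were present and passed the filter on low counts. The family was chosen by name with the measured difference of Itpr3 between the genotypes of these same libraries already known, where its p ranked 12 among 15467 tested genes. The differences between genotypes are therefore given for the 6 genes as levels, fold changes and intervals, with no p.

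The libraries came from cerebella of mice, 6 labelled deltaalpha6-Cre Crfr1 knock-out (cKO) and 6 labelled WT. Crfr1, a receptor of the stress peptide corticotropin-releasing factor that signals through cAMP, is listed under the symbol Crhr1. The α6 in the driver's name refers to Gabra6, a GABA-A receptor subunit gene of granule cells. The labels give no age or sex and name no group with the driver alone, so loss of the receptor, presence of the driver and linked DNA cannot be told apart. Library totals ran from 32.3 to 58.7 M counts in cKO and from 23.8 to 62.1 M in WT (M, 1000000 counts, two-sided exact permutation test of the means, p = 0.0974). Crhr1 averaged 98.8 ± 6.00 CPM (counts for each 1 M of scaled library size) in cKO and 97.6 ± 4.31 CPM in WT (SD, n = 6 each). Crhr1 counts cover the whole gene and cells outside the driver's reach, so they do not check the deletion. Gabra6 averaged 623 ± 30.0 CPM in cKO and 813 ± 56.1 CPM in WT (SD, n = 6 each), and fell by 23.3% (edgeR quasi-likelihood adjusted p = 1.45e-05). The summed CPM of the 8 granule cell markers was 5795 to 6237 in cKO and 6008 to 6183 in WT, and that of the 8 Purkinje cell markers was 4877 to 5484 in cKO and 5211 to 5503 in WT, so defining cerebellar markers were present in all 12 libraries. Each library averages all cell types of the tissue, so fewer cells of a type and less RNA per cell cannot be told apart.

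IP3 receptors open when IP3, made by phospholipase C downstream of Gq-coupled receptors, and cytosolic calcium bind together. Ryanodine receptors are larger channels of the same superfamily and are opened by cytosolic calcium or, in skeletal muscle, by direct coupling to the calcium channel of the surface membrane. In Purkinje cells IP3 receptor 1 releases calcium when parallel fibres are active, a step needed for long-term depression of their synapses.

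Itpr3 was the member whose level differed between the genotypes. Its product is the IP3 receptor known best from epithelial, secretory and taste cells. Itpr3 had a lowest level of 65.4, a median of 71.7 and a highest level of 75.0 CPM in cKO libraries, against 48.9, 51.7 and 58.5 CPM in WT libraries. Every cKO library lay above every WT library, and the gap between the lowest cKO and the highest WT library was narrower than the range within either group. The means were 71.0 ± 3.68 CPM in cKO and 52.2 ± 3.38 CPM in WT (SD, n = 6 each). The log2 fold change, cKO over WT, was 0.44 (SE 0.04, 95% interval 0.36 to 0.53), a 1.36-fold difference with an interval of 1.28 to 1.45. The raw counts behind these levels were 1246 to 4208 per library.

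**Figure D1:**
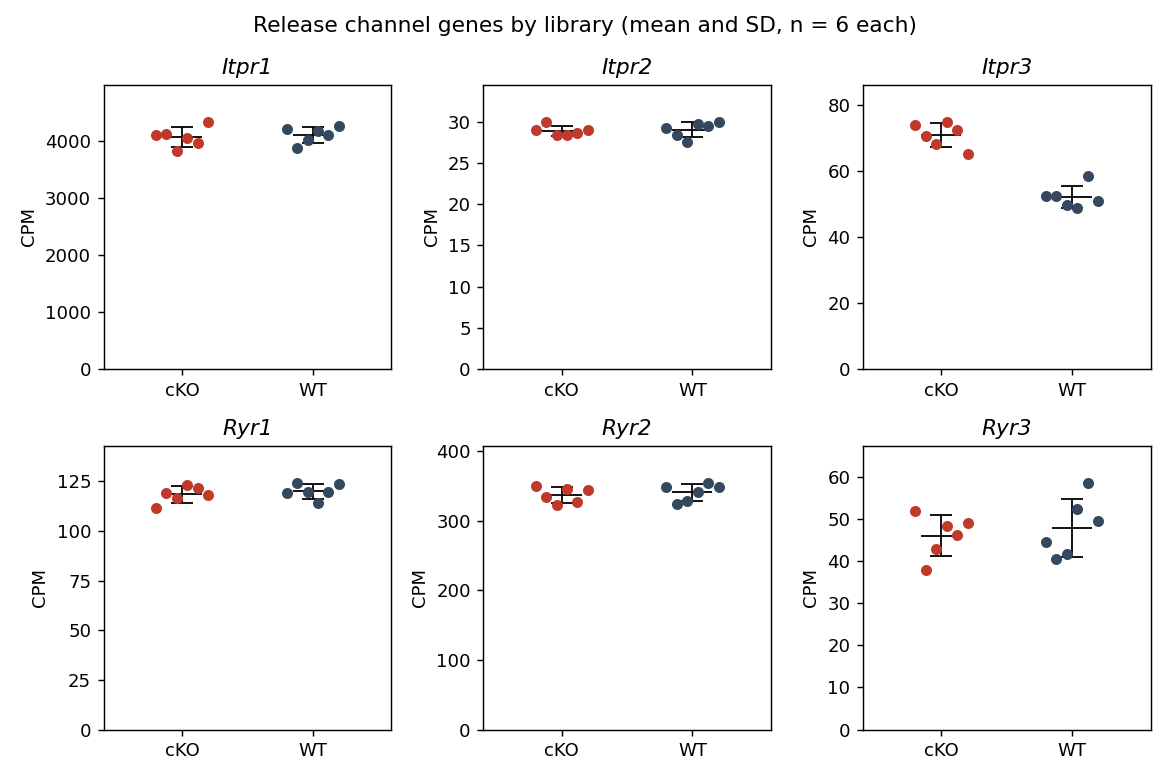
CPM (vertical axes, from 0) of the 6 channel genes in cKO and WT libraries; points are libraries and bars the mean and SD (n = 6 each). In Itpr3 the cKO libraries, 65.4 to 75.0 CPM, sit above the WT libraries, 48.9 to 58.5 CPM, while in the other 5 genes the groups overlap.

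The same Itpr3 counts were also measured against another member rather than against library size. Set against Itpr1, the ratio of counts was 15.1 to 18.5 in cKO libraries (median 17.95), against 11.7 to 14.3 in WT libraries (median 12.5), in Itpr3 counts for each 1000 of Itpr1. The groups did not overlap on this ratio, which does not depend on the scaling of library sizes. It reuses the Itpr3 counts in which the difference was already known, so it adds no separate support. WT replicate 5 was the highest WT library for Itpr3, and cKO replicate 6 the lowest cKO library. Without WT replicate 5 the log2 fold change of Itpr3 was 0.48, and without cKO replicate 6 it was 0.47.

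Levels of marker genes outside the family were compared between the genotypes as well. A score of 8 forebrain and midbrain genes (mean log2 CPM) had a median of 0.911 in cKO (0.594 to 1.05) and 0.685 in WT (0.403 to 1.06). The cKO range lay inside the WT range, and 1 of the 8 tested genes of that list was called higher. The summed CPM of that list was 19.8 to 24.4 in cKO and 18.1 to 23.9 in WT, and no marker in the table was at 0 in all libraries. With the score in the fit the log2 fold change of Itpr3 was 0.43 (SE 0.05), and without the 4 libraries highest in it the value was 0.47 (SE 0.04). The 6 microglia markers summed to 86.4 to 101 CPM in cKO and 79.8 to 87.7 CPM in WT, with Cx3cr1 and Csf1r called higher, and their part in the difference of Itpr3 was not tested. Neuronal markers that were called were Etv1 (higher) and Gabra6 and Zic1 (lower) of the 8 granule cell genes, and Eomes (lower) of 4 unipolar brush and nuclear neuron genes, which summed to 33.8 to 64.4 CPM in cKO and 48.05 to 64.3 CPM in WT. Their part was not tested either. The 6 interneuron markers held no called gene, and their summed level was 398.8 to 462.7 CPM in cKO (median 442.7), against 453.2 to 472.9 CPM in WT (median 462.2), so the cKO median lay below all WT libraries. The same held for the granule cell list (cKO median 5913, lowest WT library 6008 CPM) and the Purkinje cell list (5153 and 5211 CPM). However, the median log2 fold change over the genes was 0.034 in the granule cell and 0.025 in the Purkinje cell list, against −0.090 in the interneuron list. A sum weighs abundant genes most. Gabra6 of the granule cell list averaged 623 CPM in cKO and 813 in WT, and Car8 of the Purkinje cell list 1593 and 1813 CPM. By contrast, the cKO median lay above all WT libraries for the microglia list (90.5 CPM, highest WT library 87.7 CPM). For the vascular list it lay just above them (229.8 and 229.4 CPM). It also lay above them for the brainstem list (1.05 and 0.968 CPM) and the erythrocyte list (4.89 and 4.42 CPM). Each of these 2 lists had 1 tested gene, which was not called. The part of these differences in that of Itpr3 was not tested. Markers of Bergmann glia and astrocytes (7 genes), oligodendrocytes (6), and endothelial and mural cells (8) held no called gene, nor did those of choroid plexus and ependyma (6). Summed levels of these lists overlapped between genotypes: 4010 to 4181 CPM in cKO against 4025 to 4169 in WT for the astroglial list, 3478 to 3883 against 3612 to 3926 for the oligodendrocyte list, 213 to 241 against 219 to 229 for the vascular list, and 146 to 1026 against 207 to 640.1 for the choroid plexus list.

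Itpr3 lies on chromosome 17 (27057304 to 27122223, mm10, plus strand; GENCODE M21 ENSMUSG00000042644.9), with 9.02 kb of exon sequence over a span of 64.9 kb. The gene Itpr3os lies on the opposite strand and shares 233 exonic bases with it. The strand setting of the authors' counting is not given in the sources used here, so reads of Itpr3os could be part of the Itpr3 count, and Itpr3os was not analysed here. Promoter sequences from RefSeq (GRCm38.p6) matched 4 members, Itpr2, Itpr3, Ryr1 and Ryr2. The 250 bases upstream of the start are shown for Itpr3, the member that differed, at chr17:27057054-27057303 on the plus strand, and for Itpr2, an IP3 receptor gene that did not pass the test, at chr6:146502224-146502473 on the minus strand. Capitals mark the E-box CACGTG and the GC box GGGCGG on either strand.
Itpr3: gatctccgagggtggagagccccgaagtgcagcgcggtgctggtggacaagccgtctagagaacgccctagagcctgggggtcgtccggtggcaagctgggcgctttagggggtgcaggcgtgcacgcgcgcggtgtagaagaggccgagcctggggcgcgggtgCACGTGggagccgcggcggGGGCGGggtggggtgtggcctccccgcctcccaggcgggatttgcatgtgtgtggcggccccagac
Itpr2: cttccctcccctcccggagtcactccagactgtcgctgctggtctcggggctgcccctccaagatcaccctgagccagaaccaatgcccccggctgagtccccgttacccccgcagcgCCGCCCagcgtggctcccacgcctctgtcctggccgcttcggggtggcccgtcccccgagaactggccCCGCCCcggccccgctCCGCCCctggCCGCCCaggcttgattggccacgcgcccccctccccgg

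The Itpr3 window held 1 E-box, starting at −85 from the start site, and 1 GC box at −66, while the Itpr2 window held 4 GC boxes and no E-box. An E-box was in 6.02% and a GC box in 32.7% of all 32851 promoter windows of this length. GC content was 72.0% for Itpr3 and 74.4% for Itpr2, against a median of 52.4% over all windows. Ryr1 had 2 GC boxes and Ryr2 none. The cAMP response element TGACGTCA (1.55% of windows), its core TGACG (17.8%), the TATA box TATAAA (12.4%) and the AP-1 site TGANTCA (6.75%), searched on both strands, matched in none of the 4 windows; the element contains its core.

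Itpr1, the IP3 receptor of Purkinje cells and the main one in cerebellum, had a lowest level of 3824, a median of 4073 and a highest level of 4329 CPM in cKO, against 3874, 4138 and 4250.5 CPM in WT. The groups overlapped, and the highest library was cKO replicate 6 and the lowest cKO replicate 3. The log2 fold change was −0.014 (SE 0.03), with a 95% interval of −4.87% to 3.16% in percent of the WT level. It lies on chromosome 6 (108213096 to 108551109, mm10). The Purkinje cell markers held no called gene among 8 tested.

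Itpr2, an IP3 receptor known in astrocytes and other non-neuronal cells, was even across libraries. Its levels were 28.4, 28.8 and 30.0 CPM in cKO (lowest, median, highest), against 27.6, 29.4 and 30.0 CPM in WT. The groups overlapped along most of their range. The log2 fold change was −0.0085 (SE 0.03), with a 95% interval of −4.89% to 3.90%. Itpr2 lies on chromosome 6 as well (146108299 to 146502223).

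Ryr1, the release channel of skeletal muscle, which Purkinje cells also express, had 111, 118.7 and 123 CPM in cKO (lowest, median, highest), against 114, 119.7 and 124 CPM in WT. The groups overlapped, and the log2 fold change was −0.020 (SE 0.03), with a 95% interval of −5.21% to 2.66%. Skeletal muscle markers summed to 1.83 to 2.69 CPM over 6 genes in cKO and 1.89 to 2.76 CPM in WT, so they were near 0 beside Ryr1. It lies on chromosome 7 (29003344 to 29125179) and shares 864 exonic bases with Gm26604 on the opposite strand, which was not analysed here.

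Ryr2, the cardiac ryanodine receptor and an abundant form in brain, had 322, 339 and 350.5 CPM in cKO (lowest, median, highest), against 324, 345 and 355 CPM in WT. The groups overlapped almost wholly, with a log2 fold change of −0.015 (SE 0.03) and a 95% interval of −5.01% to 3.03%. Ryr2 lies on chromosome 13 (11553102 to 12106945).

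Ryr3, a ryanodine receptor with widespread low expression, was the most variable member. It had 37.9, 47.1 and 51.8 CPM in cKO (lowest, median, highest), against 40.4, 47.0 and 58.5 CPM in WT. The groups overlapped, WT replicate 5 being the highest library and cKO replicate 2 the lowest. The coefficient of variation was 10.7% in cKO and 14.5% in WT, while in the other 5 members it ran from 2.06% to 6.48%. Its log2 fold change was −0.059 (SE 0.08), and the 95% interval of −14.6% to 7.98% was the widest of the 6. Ryr3 lies on chromosome 2 (112631355 to 113217096) and shares 916 exonic bases with Aven on the opposite strand, a gene that averaged 8.47 ± 0.61 CPM in cKO and 8.06 ± 0.41 CPM in WT (SD, n = 6 each).

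**Figure D2:**
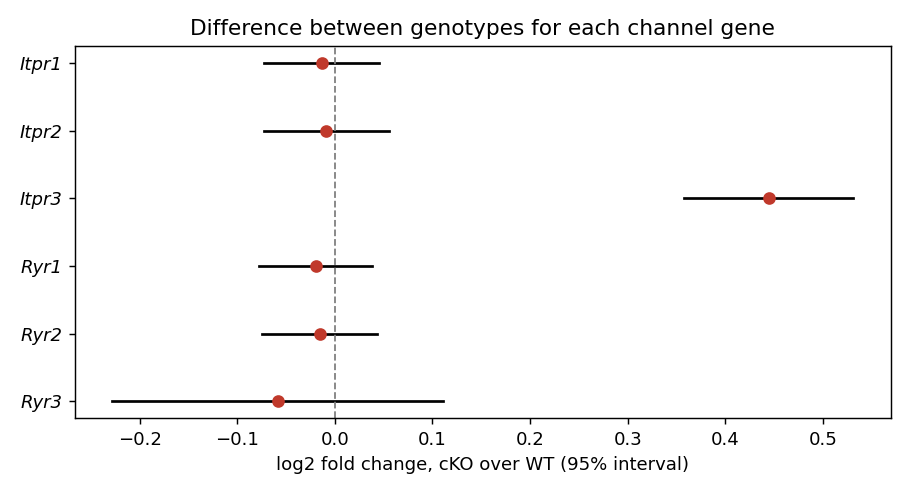
Log2 fold change, cKO over WT (horizontal axis), of each channel gene; points are estimates and lines 95% intervals from the fit over 15467 genes. The interval of Itpr3 runs from 0.36 to 0.53, and those of the other 5 genes include 0.

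In the fit over all genes 1 of the 6 members passed an adjusted p of 0.05, beside 2.64% of all genes tested, and 1 of the 6 had groups that did not overlap, beside 2.09% of all genes. Since Itpr3 was known when the family was proposed, these counts carry no weight of their own. The median log2 fold change was −0.0145 over the 6 members and −0.000268 over all genes tested. In the authors' deposited table the log2 fold change of Itpr3 was 0.37 (SE 0.04), and those of the other 5 ranged from −0.026 for Ryr3 to −0.0076 for Itpr2. Those values appear shrunken towards 0, and their sign was read from 400 genes called in both analyses, of which all 400 had the same sign.

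Levels were compared between members per kb of annotated exon. Itpr1 averaged 222 ± 9.22 CPM per kb in cKO and 224 ± 7.68 in WT (SD, n = 6 each). Ryr2 came next with 11.7 ± 0.40 in cKO and 11.8 ± 0.42 in WT, 18.9-fold below Itpr1 over the 12 libraries. Itpr3 had 7.87 ± 0.41 CPM per kb in cKO and 5.79 ± 0.38 in WT. Ryr1 had 5.42 ± 0.19 in cKO and 5.50 ± 0.17 in WT. Ryr3 had 2.42 ± 0.26 in cKO and 2.52 ± 0.37 in WT, and Itpr2 1.95 ± 0.04 in cKO and 1.96 ± 0.06 in WT (SD, n = 6 each). Itpr1 exceeded Ryr2, Ryr2 exceeded Itpr3 and Ryr1 exceeded Ryr3 in 12 of 12 libraries, while the other neighbouring pairs in this order overlapped. Itpr3 exceeded Ryr1 in 6 of 6 cKO and 5 of 6 WT libraries, and in WT the means of these genes differed by less than the SD of Itpr3. Ryr3 exceeded Itpr2 in 5 of 6 cKO and 6 of 6 WT libraries. Lengths take all annotated exons as 1 transcript, so a gene with long alternative exons reads low.

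**Figure D3:**
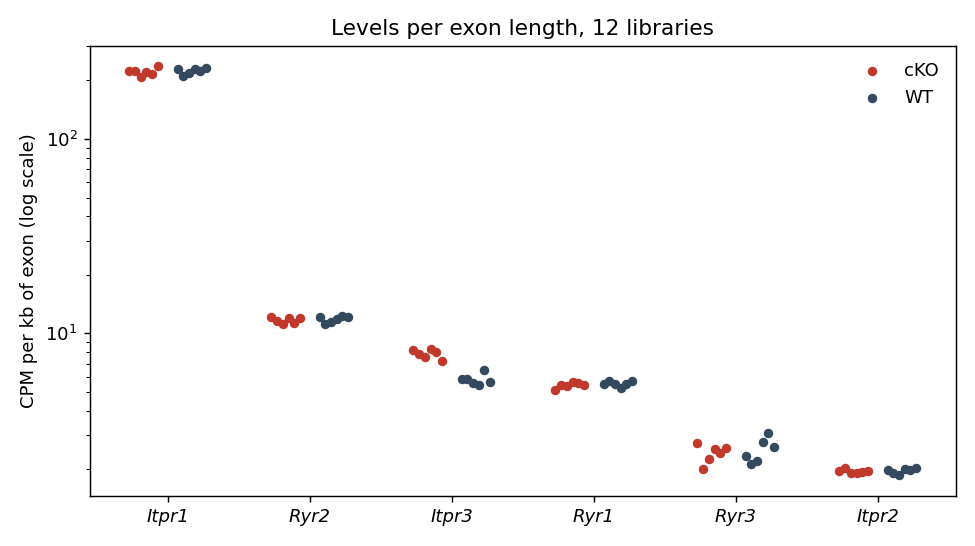
Levels per exon length (CPM per kb, log scale) of the 6 channel genes, ordered by mean; each point is a library, with cKO left of WT. Itpr1 sits near 222 CPM per kb, far above Ryr2 near 11.8, and Itpr3 is the gene in which the colours separate.

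Within the IP3 receptors, per kb, Itpr1 made up 95.8 ± 0.26% of the summed level in cKO and 96.7 ± 0.20% in WT (SD, n = 6 each). Itpr3 made up 3.40 ± 0.24% in cKO and 2.50 ± 0.19% in WT, and Itpr2 0.84 ± 0.03% in cKO and 0.85 ± 0.02% in WT. The summed IP3 receptor level was 232 ± 9.12 CPM per kb in cKO and 232 ± 7.70 in WT, so the difference of Itpr3 left the sum within the spread of the libraries. Among the ryanodine receptors Ryr2 made up 59.9 ± 0.86% in cKO and 59.6 ± 0.68% in WT. Ryr1 made up 27.7 ± 1.25% in cKO and 27.7 ± 1.39% in WT, and Ryr3 12.4 ± 1.06% in cKO and 12.7 ± 1.44% in WT.

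Covariation among the members was examined after subtracting each genotype's mean, a measure that does not use the difference between genotypes. Of 15 pairs, 0 passed after Benjamini-Hochberg adjustment (two-sided permutation test with 100000 permutations within genotype), while 3 had an unadjusted p under 0.05 by Pearson and 2 by Spearman correlation. Itpr1 and Ryr2 had r = 0.75 and rho = 0.54 over 12 libraries (permutation p = 0.00844, adjusted 0.0912, and p = 0.0857, adjusted 0.368), and r = 0.50 without the 2 libraries farthest from the median of Itpr1. Ryr2 and Ryr3 had r = 0.73 and rho = 0.74 (permutation p = 0.0122, adjusted 0.0912, and p = 0.0124, adjusted 0.108), and r = 0.67 without the 2 farthest libraries. Itpr1 and Itpr2 had r = 0.62 and rho = 0.71 (permutation p = 0.0327, adjusted 0.164, and p = 0.0144, adjusted 0.108), and r = 0.58 without them. Itpr3 had r between −0.20 and 0.40 with the other members, and Ryr1 between −0.34 and 0.19.

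**Figure D4:**
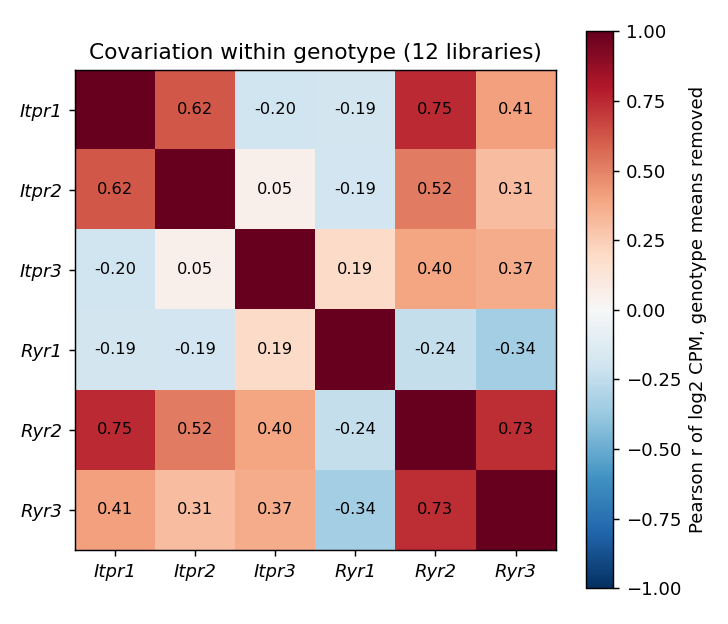
Pearson r between members' log2 CPM over 12 libraries after removal of genotype means (colour scale −1 to 1). Itpr1 with Ryr2 (0.75) and Ryr2 with Ryr3 (0.73) are the highest pairs, and Ryr1 is negative with 4 of the others.

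Genes whose within-genotype pattern was most like each member were ranked among 13820 genes with a mean of at least 1 CPM. For Itpr1 they included Med1 (r = 0.98) and Atm (0.96), and for Ryr2 they were Rnf20 (0.94), Herc2 (0.93) and Polr2b (0.91). For Itpr3 they were Gadd45gip1 (0.91), Fbxo48 (0.87) and Exosc6 (0.86), none of which passed the genotype test (edgeR adjusted p = 0.667, 0.826 and 0.930). For Itpr2 they were Ccnf (0.92), Scarb2 (0.90) and Zfp951 (0.88), for Ryr1 Sbk1 (0.95), Plekhd1 (0.94) and Ap3d1 (0.91), and for Ryr3 they included Lrp1b (0.93) and Zscan22 (0.93). These r values describe 12 libraries that share depth and preparation, and the highest of so many genes is high in any case.

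The genes around the channels were mostly level between genotypes. Of 109 listed pathway genes 101 were tested, 3 rose, among them Jph4 and Jph3, and 1 fell, a called share of 3.96% beside 2.64% of all genes (1.27% higher and 1.38% lower), and the median log2 fold change was 0.020 over the lists and −0.000268 over all genes.

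Upstream of IP3, 1 of 16 tested genes of its production fell and 0 rose. The most abundant gene of the list, Plch2, a phospholipase C, averaged 411 ± 24.5 CPM in cKO and 425 ± 13.7 CPM in WT (SD, n = 6 each; edgeR adjusted p = 0.569). The list's median log2 fold change was 0.018.

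Of 9 genes that convert or clear IP3, 0 passed, and the median log2 fold change was 0.011. Inpp5a, a phosphatase that inactivates IP3, averaged 445 ± 13.05 CPM in cKO and 436 ± 13.8 CPM in WT (SD, n = 6 each; edgeR adjusted p = 0.669). Of 19 tested partners of the IP3 receptors, 0 passed, and the median was 0.011. Car8, a Purkinje cell protein that lowers the affinity of IP3 receptor 1 for IP3, had 1390.5 to 1829 CPM in cKO (median 1606), against 1730.2 to 1952 CPM in WT (median 1803). Its log2 fold change was −0.19 (SE 0.05, edgeR adjusted p = 0.0762), and 5 of 6 cKO libraries lay below all WT libraries. Without cKO replicate 6 the adjusted p of Car8 was 0.00978, and with thinned counts 0.0490. Its log2 fold change was −0.15 with the forebrain and midbrain score in the fit (adjusted p = 0.339), −0.087 with surrogate variables (0.610) and −0.078 without the 4 libraries highest in the score (0.542).

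Among 20 tested partners of the ryanodine receptors 3 rose and 0 fell, with a median log2 fold change of 0.032. Jph4, a junctophilin that ties the endoplasmic reticulum to the surface membrane in neurons, had 285 to 299 CPM in cKO (median 298), against 257 to 278 CPM in WT (median 268). The groups did not overlap, and Jph4 rose 1.11-fold (log2 fold change 0.15, SE 0.02, edgeR adjusted p = 0.00127), keeping its call in 20 of 20 alternatives. Jph3, the other neuronal junctophilin, had 181 to 199 CPM in cKO (median 192), against 162 to 187 CPM in WT (median 176). Its groups overlapped and it rose by 9.52% (log2 fold change 0.13, SE 0.03, edgeR adjusted p = 0.0474). Jph3 lost its call in 13 of 20 alternatives: without cKO replicate 2, 3, 4 or 5 or WT replicate 1, 2, 3, 4 or 6 (adjusted p = 0.0636 to 0.124), and in 4 other fits (0.0866 to 0.194).

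Further along the calcium route, no gene passed in the lists of store-operated entry (9 tested, median log2 fold change −0.0095), mitochondrial uptake and contacts with the endoplasmic reticulum (16 tested, 0.0048) and calcium binding within the endoplasmic reticulum (12 tested, 0.036). The most abundant genes of the mitochondrial and the luminal list were Vdac1, the outer mitochondrial membrane channel, and Hsp90b1, a chaperone of the endoplasmic reticulum. Vdac1 averaged 342 ± 6.84 CPM in cKO and 349 ± 4.74 in WT, and Hsp90b1 406 ± 22.8 in cKO and 396 ± 21.7 in WT (SD, n = 6 each; edgeR adjusted p = 0.610 and 0.717).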

How the data were processed

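Per the labels' protocols, RNA came from freshly dissected cerebella, a stranded mRNA kit was used for library preparation, and the 12 libraries shared their sequencing lanes. The authors deposited raw counts per gene symbol. STAR, DESeq2 and mm10 are named in the submitters' processing notes, without versions. For the counting tool and annotation, nothing is stated in the labels or headers. A second deposited table holds the authors' DESeq2 comparison: mean normalised signal, log2 fold changes, a score (headed stat) and p-values, per the file headers.

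Each of the 12 count columns carries its sample's identifier, and 0 were unmatched. The analysis used edgeR 4.0.16 in R 4.3.3: filterByExpr (15467 of 18394 genes kept), TMM scaling, and the quasi-likelihood test (glmQLFit, glmQLFTest) of genotype with Benjamini-Hochberg adjustment at 0.05. Standard errors came from the test statistic. CPM are TMM-scaled, and log2 CPM used a prior count of 2. The fit was tested on simulated data. The series describes 6 cerebella per genotype, so each library counted as a sample. The edgeR p-values set the difference between genotypes against the spread between these samples. Library pairs within a genotype differed by more than counting noise (chi-square per degree of freedom at least 2.68). That alone cannot show that they came from separate animals. Replicate numbers follow deposit order and only name libraries. Positions and exon lengths came from GENCODE M21 (GRCm38, equal to mm10). Alternatives used DESeq2 1.42.0, limma 3.58.1 and sva 3.50.0 (4 surrogate variables).

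The members, gene lists and tests were chosen with earlier results of these data known. Named genes are the 6 members, Crhr1, Gabra6, up to 4 called genes and the most abundant gene of each pathway list, and the 3 genes most like each member; others complete a count. Some genes under this rule are left out of the text but stay in the counts.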

Additional observations from a re-analysis of the deposited data

Results flagged for a closer look

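Of 62 sets of 6 libraries checked for a library far from the others, 2 were flagged, where chance flags about 1 set in 20. The level of Itpr3 in WT replicate 5 was 58.5 CPM, while the other 5 WT libraries lay between 48.9 and 52.5 CPM. The share of Itpr1 in the summed IP3 receptor level per kb was 96.2% in cKO replicate 6, while the other 5 cKO libraries lay between 95.6% and 95.8%. In both libraries Itpr3 lay towards the values of the other genotype.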

How the results depend on the processing

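Itpr3 kept its direction and its call in all 20 alternatives, with log2 fold changes of 0.383 (surrogate variables) to 0.480 (without WT replicate 5). These fits reuse the libraries in which the difference of Itpr3 was already known. They show how it depends on the processing and add no separate support. The other 5 members were called in none of the 20, and each changed sign in 1 to 3 of them. Itpr2 moved by more than its spread between libraries with thinned counts (0.053, SE 0.04). Leaving out 1 library gave −0.0325 to 0.0034 for Itpr1, −0.0236 to 0.0022 for Itpr2, 0.428 to 0.480 for Itpr3, −0.0337 to −0.0036 for Ryr1, −0.0295 to −0.0027 for Ryr2 and −0.100 to 0.0065 for Ryr3. The count of called genes, 409 (196 higher, 213 lower), was 242 (123 and 119) with the forebrain and midbrain score as a covariate and 208 (98 and 110) without the 4 libraries highest in it, where fewer samples entered. Leaving out 1 library gave 272 to 459 (134 to 214 higher, 138 to 248 lower), the lowest total without WT replicate 3. Called pathway genes numbered 4, but 1 with the forebrain and midbrain score, 1 without those 4 libraries, 1 with surrogate variables, and 2 to 5 with 1 library left out. Without the 2 farthest libraries r changed sign for Itpr2 and Itpr3 (−0.14), Ryr1 and Ryr2 (0.0021) and Ryr1 and Ryr3 (0.019). The causes were not tested. No paired analysis was possible because the labels give the groups no shared replicate numbers. The smallest count of a member in any library was 695, for Itpr2, the member whose value moved with thinned counts.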

Other observations

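The tested genes within 1 Mb of each member were mostly level between the genotypes. Around Itpr3, 1 of 37 was called, a share near the 2.64% called among all tested genes. It was Grm4, the presynaptic glutamate receptor mGluR4 of granule cells, 300.2 kb away, which fell by 12.5% while Itpr3 was higher. Grm4 averaged 477 ± 36.3 CPM in cKO and 546 ± 26.9 CPM in WT (SD, n = 6 each), with an edgeR adjusted p of 0.0171 and a log2 fold change of −0.19 (SE 0.04). It was chosen after the values had been seen. It lost its call without WT replicate 3 (adjusted p = 0.0518), and also with the forebrain and midbrain score or without the 4 libraries highest in it (0.0702 and 0.0706). The median log2 fold change of the 37 neighbours was 0.013. None of the 7 tested neighbours of Itpr1, 19 of Itpr2, 59 of Ryr1, 7 of Ryr2 and 16 of Ryr3 was called by edgeR.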
